A study of Mus musculus with 12 samples.

Results

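The genes described here control how iron enters, leaves and is held in cells: Hamp, Hjv, Bmp6, Slc40a1, Tfrc, Slc11a2, Slc11a1, Fth1, Ftl1 and Alas2. These 10 genes, read by 12 of the 41174 probes of the array and among 17016 genes with a symbol, were chosen by name with earlier results of these arrays known. Their levels and differences in all 4 groups are therefore given as descriptions, with no p. Each group held the lungs of 3 mice, with 1 array per mouse label. The labels give the strain as FVB/NJ and describe female mice that were 7 weeks old at the start; lungs were taken 1 week after the final dose. The PBS group received phosphate-buffered saline each week for 16 weeks. The LPS group received 5 ug of lipopolysaccharide (LPS), the endotoxin of Gram-negative bacteria, into the nose each week for 16 weeks. The NNK group received intraperitoneal injections of 3 mg of the tobacco carcinogen NNK during the first 4 weeks, described as semi-weekly in 1 label and as biweekly in the protocol, and the labels name no vehicle for it. The LPS/NNK group received both agents. No dosing after the first 4 weeks is listed for the NNK group, against 16 weeks for the other groups. Age at death may therefore differ between NNK and the other groups, as may time since NNK between NNK and LPS/NNK. Such differences cannot be told apart from those of treatment. The labels do not say whether the tissue held tumours or how much of a lung was taken, so 1 array is 1 piece of mixed tissue and 3 arrays per group limit the precision.

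Several features of the arrays bear on every value. PBS 1 and PBS 2 did not match their label: all 4 Y-linked genes checked were well above background there and Xist was not, whereas PBS 3 and all 9 treated arrays showed the reverse. For the named genes the text therefore says which calls against PBS were lost with PBS 3 as the only PBS array, and the plot of differences shows the 10 genes both ways. The share of spots well above background was 70.15% to 73.11% in PBS, 55.56% to 57.27% in LPS, 62.71% to 67.49% in NNK and 56.43% to 66.26% in LPS/NNK. The 3 LPS arrays and PBS 2 each lay alone among these samples on a slide, whereas PBS 3 shared a slide with NNK 2, NNK 3 with LPS/NNK 2, NNK 5 with LPS/NNK 3, and PBS 1 with LPS/NNK 6. PBS 2 was also scanned on another day than all other arrays. The position on the slide went with the group: all PBS arrays were at position 1, all LPS and NNK arrays at position 2 and all LPS/NNK arrays at position 4, so position and group cannot be told apart except between LPS and NNK. The tissue label was borne out by the 7 lung epithelial markers, which were above background on all 12 arrays. In whole lung RNA, fewer cells of a type and less RNA per cell cannot be told apart.

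Body iron is set by hepcidin, the small peptide hormone encoded by Hamp. Hepcidin binds ferroportin, the iron exporter encoded by Slc40a1, and causes its degradation, so that iron stays inside macrophages and gut cells. In liver, the signal protein Bmp6 and its co-receptor hemojuvelin (Hjv) raise Hamp through SMAD proteins, and the cytokine interleukin 6 raises it through Stat3. Inside cells, iron regulatory proteins bind messenger RNA when iron is low: they stabilise the transferrin receptor message and block translation of the ferritins, so that ferritin protein is not set by its RNA alone. Lung takes up iron with inhaled matter and red cells, and its macrophages store it.

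The promoters of Hamp and Alas2 are shown because the Hamp promoter is where BMP and STAT signals are known to act and because Alas2, the haem enzyme of red cell precursors, is a known target of GATA1. RefSeq promoter windows on the GRCm38.p6 build were matched for 7 of the 10 genes. Each sequence is the 250 bases before the start of the transcript, 5′ to 3′ on the strand of the gene. That of Hamp lies on the minus strand at chr7:30944030-30944279, and its capitals mark the BMP-responsive letters GGCGCC, 109 to 104 bases before the start, and a STAT site of the form TTCNNNGAA, 97 to 89 bases before it.
Hamp: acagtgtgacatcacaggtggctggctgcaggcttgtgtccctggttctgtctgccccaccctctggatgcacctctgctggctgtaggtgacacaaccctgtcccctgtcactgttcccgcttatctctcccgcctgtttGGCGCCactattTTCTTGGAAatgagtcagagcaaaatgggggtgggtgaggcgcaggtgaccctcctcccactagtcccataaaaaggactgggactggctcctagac
The Alas2 promoter lies on the plus strand at chrX:150547167-150547416, and its capitals mark the reverse complement of the GATA letters AGATAA, 86 to 81 bases before the start.
Alas2: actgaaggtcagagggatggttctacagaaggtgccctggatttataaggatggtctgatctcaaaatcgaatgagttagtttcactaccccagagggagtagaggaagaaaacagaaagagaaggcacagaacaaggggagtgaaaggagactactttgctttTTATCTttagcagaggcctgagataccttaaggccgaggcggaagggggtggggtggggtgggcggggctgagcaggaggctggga
Of 32851 RefSeq mouse promoter windows of the same 250 bases, searched on both strands, 9.59% held GGCGCC, 7.02% held TTCNNNGAA, 0.368% held both and 9.99% held AGATAA. Overlapping matches were not resolved. The Hamp window also held the GATA letters, 128 to 123 bases before the start, and that of Tfrc held GGCGCC, 89 to 84 bases before the start. These matches describe letters and do not show binding in lung.

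Levels below are log2 of the probe's processed brightness minus the 75th percentile of that array, so a difference of 1 is a doubling, and a level below 0 is dimmer than that percentile. Within a group the values follow the array numbers in the labels: 1, 2 and 3 for PBS, 1, 5 and 6 for LPS, 2, 3 and 5 for NNK, and 2, 3 and 6 where both agents were given. Differences are first group minus second, with the standard error (SE) of a limma model of all 12 arrays. A difference was called where the Benjamini-Hochberg adjusted p over all 21855 items was under 0.05.

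Hamp was lowest where both agents had been given. Its log2 level was -1.48, -0.62 and -2.82 in PBS, -3.10, -3.12 and -2.14 in LPS, and -0.90, -1.11 and -2.13 in NNK. In LPS/NNK it was -4.43, -3.59 and -5.49, the last not well above background. All 3 LPS/NNK arrays lay below the other 9 arrays, whereas PBS overlapped with both NNK and LPS. The group means were -1.64 ± 1.11 in PBS, -2.79 ± 0.56 in LPS, -1.38 ± 0.65 in NNK and -4.50 ± 0.95 in LPS/NNK (SD, n = 3). LPS/NNK was lower than NNK by a log2 difference of -3.12 (SE 0.57), 8.71-fold. Its difference from LPS, -1.72 (SE 0.57), did not pass the threshold. The difference of LPS/NNK from PBS was -2.86 with all PBS arrays, a call that was lost with PBS 3 alone (-1.69) and with another background correction, normexp (-0.52). LPS against PBS was -1.15 with all PBS arrays and 0.03 with PBS 3 alone, and NNK against PBS was 0.26 and 1.44, since PBS 3 was the lowest of the PBS arrays. Within the slides that held both groups, LPS/NNK 2 was below NNK 3 by -3.32 and LPS/NNK 3 below NNK 5 by -1.47. Normexp also brought the LPS/NNK difference from NNK to -0.95 and ended its call, and it brought that from LPS to 0.05. Hamp has a close paralogue, Hamp2, with a probe of its own, and it is described among the closing observations.

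Bmp6, a signal protein that raises hepcidin and in liver is made by endothelial cells, was also lowest with both agents. The brighter of its probes read 2.79, 3.35 and 3.74 in PBS, 2.71, 2.66 and 2.85 in LPS, 3.06, 3.102 and 2.10 in NNK, and 1.94, 0.38 and 0.83 in LPS/NNK. The highest LPS/NNK array lay below the lowest array of every other group, and PBS, NNK and LPS overlapped in that order of their means. The means were 3.29 ± 0.48 in PBS, 2.74 ± 0.09 in LPS, 2.75 ± 0.57 in NNK and 1.05 ± 0.80 in LPS/NNK (SD, n = 3). LPS/NNK differed from PBS by -2.24, from NNK by -1.70 and from LPS by -1.69 (SE 0.39 each). With PBS 3 alone the first of these was -2.69, and it stayed past the threshold. On the slides shared with NNK, Bmp6 differed by -1.16 and -1.72. The second Bmp6 probe kept the group order between LPS/NNK and the rest, with means of 0.43 ± 0.69, -0.61 ± 0.38, -0.55 ± 0.65 and -2.93 ± 1.42 in PBS, LPS, NNK and LPS/NNK (SD, n = 3). The call against NNK was lost with normexp and without NNK 2, NNK 3 or LPS/NNK 3, where the difference ran between -1.28 and -2.15 over all alternatives. The call against LPS held in 8 of 17 alternatives and was lost with normexp, quantile scaling, no filter, only the groups compared, and without LPS 1, LPS 5, LPS 6, LPS/NNK 3 or LPS/NNK 6.

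Hjv encodes hemojuvelin, a membrane co-receptor for BMPs that is made mainly in skeletal muscle, heart and liver. Its level was -2.81, -2.64 and -1.77 in PBS, -2.22, -1.96 and -2.86 in LPS, -1.39, -2.17 and -2.95 in NNK, and -3.56, -5.13 and -5.23 in LPS/NNK. The last 2 of these were not well above background, and all 3 LPS/NNK arrays were below the other 9, which overlapped between groups. The means were -2.41 ± 0.56 in PBS, -2.35 ± 0.46 in LPS, -2.17 ± 0.78 in NNK and -4.64 ± 0.94 in LPS/NNK (SD, n = 3). LPS/NNK differed from NNK by -2.47, from LPS by -2.29 and from PBS by -2.23 (SE 0.49 each), and from PBS 3 alone by -2.87. With only 1 of 3 LPS/NNK arrays above background, these sizes rest on levels near the floor. Within slides, LPS/NNK 2 was below NNK 3 by -1.39 and LPS/NNK 3 below NNK 5 by -2.18. Normexp changed the difference from NNK to -0.65 and turned that from PBS to 0.19. The call against LPS held in 10 of 16 alternatives, where the difference ran between -2.84 and -0.23. It was lost with normexp, only the groups compared, and without LPS 1, LPS 5, LPS/NNK 3 or LPS/NNK 6. Hamp, Bmp6 and Hjv thus had their lowest means in LPS/NNK, but with each agent alone none of the 3 passed the threshold against PBS.

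Markers of other tissues that use Hamp or Hjv were set beside them. Between LPS/NNK and NNK, 5 of 11 heart muscle markers were called, all lower. Over all items 17.3% were called in that comparison, 7.92% higher and 9.35% lower. The summed log2 level of the heart list was 6.54 to 7.53 in PBS, 6.20 to 7.27 in LPS, 6.58 to 7.91 in NNK and 5.90 to 7.12 in LPS/NNK, and all 11 markers were above background on every array. Of the skeletal muscle list, 8 of 10 markers could be tested and 1 was called higher and 2 lower in that comparison, with a summed level of 3.73 to 4.94 in NNK and 3.12 to 3.87 in LPS/NNK, against 2.89 to 3.74 in PBS. Most liver markers were near background: at most 4 of 7 were above it on any array, and Ttr was on none, but Ahsg was above it on every array. Of the 3 liver markers tested, Alb was called lower in LPS/NNK than in NNK. All 3 were called higher in NNK than in PBS, where 27.8% of all items were. The liver list summed to between -2.68 and -1.90 in PBS and between -1.85 and -0.87 in LPS. Its sum was between -0.86 and -0.03 in NNK and between -1.97 and -0.50 in LPS/NNK. The part of heart, muscle or liver RNA in the levels of Hamp and Hjv was not tested. For Bmp6, limma called 0 of 10 endothelial markers between LPS/NNK and NNK, where 2 had an unadjusted p under 0.05, with summed levels of 8.10 to 8.48 in NNK and 7.44 to 8.17 in LPS/NNK.

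**Figure D1:**
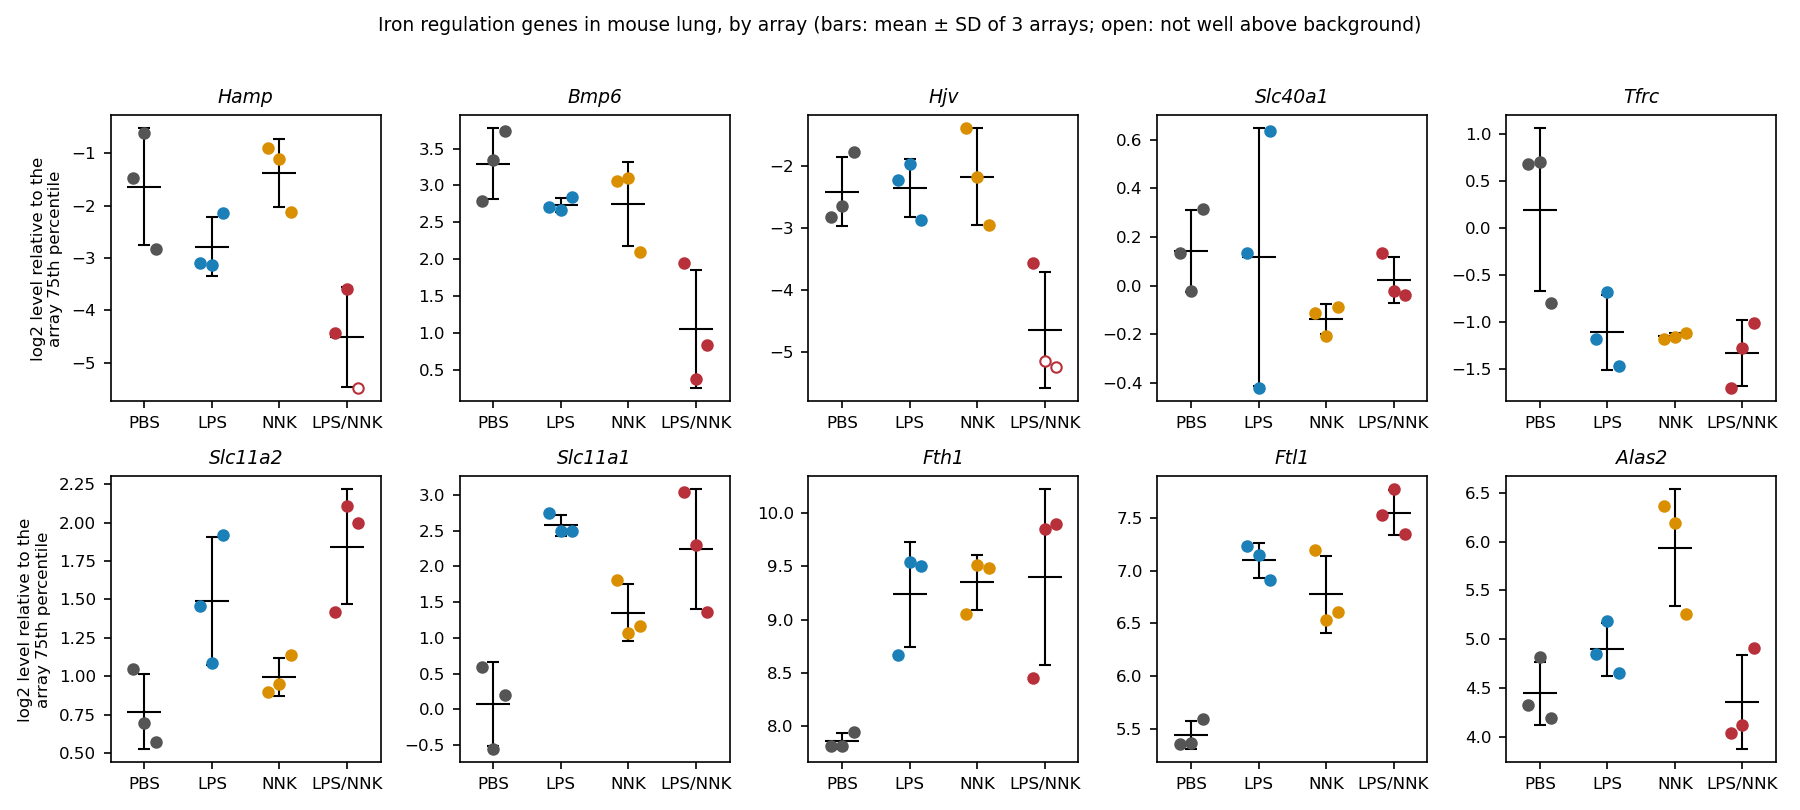
Log2 level of each of the 10 genes on each of the 12 arrays (vertical axes, relative to the 75th percentile of the array; horizontal axes, the 4 groups), with bars for the mean ± SD of 3 arrays and open points where the probe was not well above background. The LPS/NNK arrays lie below all others for Hamp, Hjv and Bmp6, and the PBS arrays lie below all others for Ftl1 and Fth1, although the Fth1 difference from PBS turned sign for LPS and LPS/NNK under quantile and for all 3 treated groups under cyclic loess scaling.

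Slc40a1 encodes ferroportin, the only known iron exporter of mammalian cells, and it was nearly level. Its log2 level was 0.14, -0.02 and 0.32 in PBS, 0.13, -0.42 and 0.64 in LPS, -0.11, -0.21 and -0.09 in NNK, and 0.13, -0.02 and -0.04 in LPS/NNK. No difference between groups in these comparisons was called, and their sizes ran from -0.28 to 0.16 (SE 0.26). The 95% interval of LPS/NNK against NNK was -0.40 to 0.72 and that of LPS against PBS was -0.59 to 0.54, so that differences within those bounds are not resolved by 3 arrays. Set against PBS 3 alone, Slc40a1 differed by -0.20, -0.45 and -0.29 in LPS, NNK and LPS/NNK, with no call.

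Tfrc encodes the transferrin receptor, the door for transferrin-bound iron. The level, a mean of 10 spots, was 0.68, 0.71 and -0.80 in PBS, -1.18, -0.68 and -1.47 in LPS, -1.18, -1.16 and -1.11 in NNK, and -1.71, -1.27 and -1.01 in LPS/NNK. PBS 1 and PBS 2 stood above every other array, whereas PBS 3 lay within the LPS range. The differences from PBS were -1.31 (LPS), -1.35 (NNK) and -1.53 (LPS/NNK), each with an SE of 0.37 and each called. With PBS 3 alone they were -0.31, -0.35 and -0.53 and none was called, so these calls rest on the 2 PBS arrays that did not match their label. Within slides, NNK 2 differed from PBS 3 by -0.38 and LPS/NNK 6 from PBS 1 by -1.70. Among the treated groups Tfrc differed by -0.18 between LPS/NNK and NNK and by -0.22 between LPS/NNK and LPS.

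Slc11a2 encodes DMT1, the transporter that carries ferrous iron into the cytosol. Its brighter probe read 1.05, 0.69 and 0.57 in PBS, 1.46, 1.09 and 1.92 in LPS, 0.90, 0.95 and 1.14 in NNK, and 1.42, 2.11 and 2.0 in LPS/NNK. LPS and LPS/NNK were the higher groups, and neighbouring groups overlapped at each step of the order. LPS/NNK was above PBS by 1.07 (SE 0.27), by 1.27 with PBS 3 alone, and above NNK by 0.85 (SE 0.27). The call against NNK held in 6 of 18 alternatives, and that of LPS against PBS (0.72) in 8 of 18, not with PBS 3 alone. The dimmer probe, with means of -3.26 ± 0.15, -2.37 ± 0.20, -2.25 ± 0.11 and -2.03 ± 0.44 in PBS, LPS, NNK and LPS/NNK (SD, n = 3), put all 9 treated arrays above the 3 PBS arrays and so differed from the brighter probe in placing NNK beside LPS.

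Slc11a1 encodes NRAMP1, which moves metal ions out of the phagosome of macrophages and neutrophils. Its level was 0.59, -0.56 and 0.20 in PBS, 2.75, 2.49 and 2.49 in LPS, 1.81, 1.07 and 1.17 in NNK, and 3.04, 2.30 and 1.37 in LPS/NNK. Every treated array was above every PBS array. The lowest LPS array exceeded the highest NNK array, and LPS/NNK reached from within the NNK range to above the LPS range. LPS differed from PBS by 2.50, LPS/NNK by 2.16 and NNK by 1.27 (SE 0.40 each). Those of LPS and LPS/NNK kept their calls in each of the 18 and 19 alternatives run for them, and with PBS 3 alone they were 2.38 and 2.04. The call of NNK held in 13 of 19 and was lost with normexp, cyclic loess, slide as a fixed block, without PBS 2 or NNK 2 and with PBS 3 alone (1.15), with a lowest value of 0.66. On shared slides, NNK 2 was above PBS 3 by 1.61 and LPS/NNK 6 above PBS 1 by 0.78. Of 9 markers of tissue and recruited macrophages, all above background on every array, 6 were called higher with LPS, 5 with NNK and 8 with LPS/NNK, each against PBS, and 1 was called lower with NNK and 1 with LPS/NNK. The shares called higher over all items were 26.1%, 27.8% and 27.9%. Their summed level was 7.53 to 8.43 in PBS, 8.77 to 9.33 in LPS, 9.06 to 9.58 in NNK and 9.20 to 10.23 in LPS/NNK. The 9 neutrophil markers measured summed to 4.83 to 6.50 in PBS, 4.30 to 5.02 in LPS, 5.38 to 5.64 in NNK and 4.15 to 5.88 in LPS/NNK. The part of macrophage or neutrophil number in the Slc11a1 level was not tested.

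Ftl1 and Fth1 encode the light and heavy chains of ferritin, the shell that stores iron. Ftl1 read 5.35, 5.37 and 5.59 in PBS, 7.23, 7.16 and 6.91 in LPS, 7.19, 6.53 and 6.61 in NNK, and 7.53, 7.77 and 7.35 in LPS/NNK. PBS was lowest and LPS/NNK highest, and neither overlapped with another group. The means were 5.44 ± 0.13 in PBS, 7.10 ± 0.17 in LPS, 6.78 ± 0.36 in NNK and 7.55 ± 0.21 in LPS/NNK (SD, n = 3). The differences from PBS were 1.66, 1.34 and 2.12 for LPS, NNK and LPS/NNK (SE 0.24 each), and 1.51, 1.19 and 1.96 with PBS 3 alone. Within slides, NNK 2 was above PBS 3 by 1.61 and LPS/NNK 6 above PBS 1 by 2.0. LPS/NNK was above NNK by 0.78 (SE 0.24), a call that held in 7 of 18 alternatives. The difference from PBS stayed above 0 in each alternative for LPS and LPS/NNK, and cyclic loess scaling alone ended those calls, at 0.51 and 0.71. That of NNK was lost with normexp, quantile and cyclic loess scaling, with a lowest value of 0.18.

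Fth1 was 7.81, 7.82 and 7.94 in PBS, 8.67, 9.55 and 9.50 in LPS, 9.05, 9.51 and 9.49 in NNK, and 8.45, 9.85 and 9.90 in LPS/NNK. The PBS arrays lay below all 9 treated arrays, which overlapped with each other. The differences from PBS were 1.38 (LPS), 1.49 (NNK) and 1.54 (LPS/NNK), each with an SE of 0.37, but the sign depended on the scaling: under cyclic loess they were -0.16, -0.050 and -0.36, and under quantile scaling those of LPS and LPS/NNK were -0.061 and -0.054. With PBS 3 alone all 3 calls were lost, and no direction is given for Fth1. Sequences of ferritin pseudogenes are near-identical to the ferritin genes, and the files do not show whether the probes tell them apart. The LPS/NNK means of Fth1 and NNK differed by 0.05.

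Alas2 encodes the first enzyme of haem synthesis in red cell precursors, and NNK was its highest group. Its level was 4.32, 4.81 and 4.19 in PBS, 4.85, 5.19 and 4.65 in LPS, 6.37, 6.19 and 5.25 in NNK, and 4.03, 4.11 and 4.91 in LPS/NNK. The 3 NNK arrays were above the other 9, of which LPS and PBS, and PBS and LPS/NNK, overlapped. The means were 4.44 ± 0.33 in PBS, 4.89 ± 0.27 in LPS, 5.94 ± 0.60 in NNK and 4.35 ± 0.49 in LPS/NNK (SD, n = 3). NNK was above PBS by 1.49 (SE 0.34), or by 1.75 with PBS 3 alone, a call that normexp, quantile and cyclic loess scaling ended, with a lowest value of 0.65, and LPS/NNK was below NNK by -1.58 (SE 0.34). Within slides, LPS/NNK 2 was below NNK 3 by -2.15 and LPS/NNK 3 below NNK 5 by -1.14. The call of LPS/NNK against NNK held in 17 of 18 alternatives and ended with normexp, at -1.17.

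Red cell genes were set beside Alas2. Slc4a1, the anion exchanger band 3 of red cells, was the item nearest to Alas2 over the 12 arrays among those called by symbol, with a root mean square distance of 0.248 after each was centred on its own mean. The next were Hbq1a (0.262), Hbq1b (0.296) and Gnmt (0.301), of which the first 2 are near-identical globin genes that may share signal. Slc4a1 read -0.46, 0.25 and -0.24 in PBS, 0.17, 0.39 and 0.22 in LPS, 1.56, 1.83 and 0.55 in NNK, and 0.06, -0.56 and 0.69 in LPS/NNK. It was below NNK in LPS/NNK by -1.25 (SE 0.37, limma adjusted p = 0.0333), as was Gata1, a red cell transcription factor, by -1.31 (SE 0.35, limma adjusted p = 0.0232). Gata1 was not well above background on LPS/NNK 3 and LPS/NNK 6, so its size rests on levels near the floor. Of the other erythroid markers, Klf1 and Rhd were above background on no LPS/NNK array. Of 10 erythroid markers tested, 4 were called in that comparison, all lower, where 9.35% of all items were called lower. In NNK against PBS 4 were called higher and 1 lower, where the shares over all items were 27.8% and 23.7%. The globins Hba-a1 and Hbb-bt also had their highest mean in NNK and a lower one in LPS/NNK. They differed from Alas2 and Slc4a1 in that the PBS arrays lay below all treated arrays. Hbb-bt read 8.16, 7.93 and 8.31 in PBS, 8.77, 9.50 and 9.64 in LPS, 9.59, 9.93 and 10.07 in NNK, and 8.80, 9.10 and 10.12 in LPS/NNK. The summed erythroid level, in which the globins weigh most, was 8.96 to 9.23 in PBS, 9.85 to 10.50 in LPS, 10.56 to 10.84 in NNK and 9.56 to 10.93 in LPS/NNK. Of the 13 markers measured, 10 to 11 were above background in PBS, 5 to 6 in LPS, 7 to 11 in NNK and 4 to 8 in LPS/NNK, and Rhag was above it on no array. The part of blood content in the Alas2 level was not tested.

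**Figure D2:**
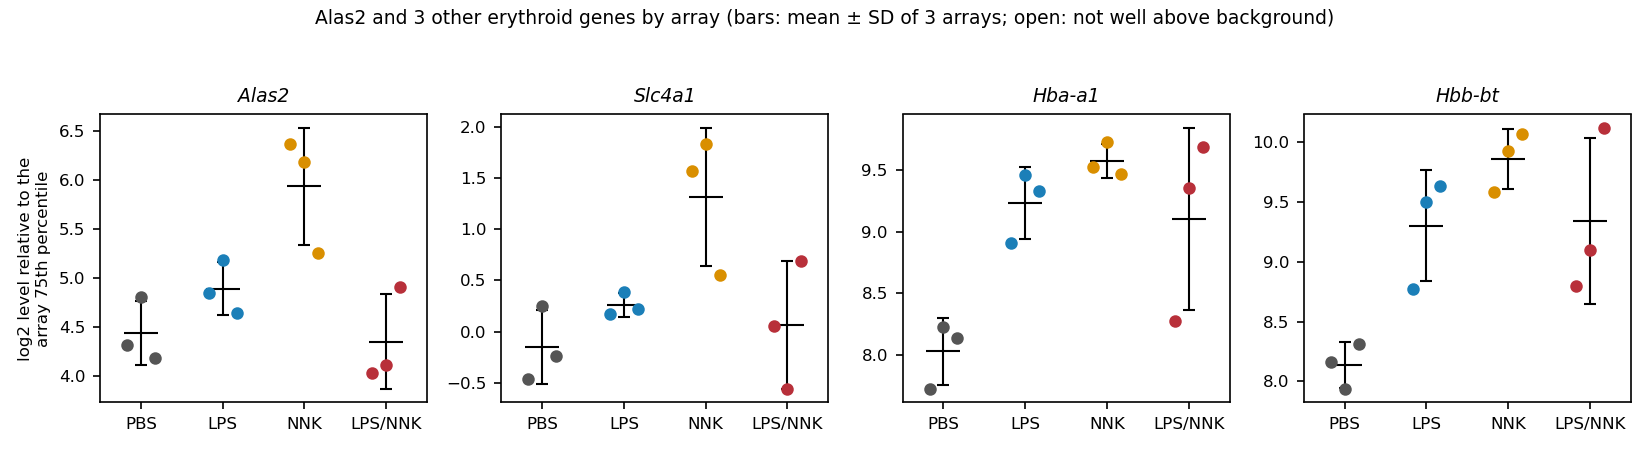
Log2 levels of Alas2 and of the red cell genes Slc4a1, Hba-a1 and Hbb-bt on each array (vertical axes, relative to the 75th percentile of the array; horizontal axes, the 4 groups), with bars for the mean ± SD of 3 arrays. Each gene has its highest mean in NNK and a lower one in LPS/NNK. For Hbb-bt 1 of the 3 LPS/NNK arrays, at 10.12, lies above all NNK arrays, and for Slc4a1 the same array lies above NNK 5. For Hba-a1 and Hbb-bt the PBS arrays lie below all treated arrays.

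Across the 10 genes, 5 were called in LPS against PBS (4 higher, among them Fth1, whose sign depends on scaling, and 1 lower), where 56.0% of all items were called. In NNK against PBS 5 were called (4 higher, 1 lower) against 51.5% of items, and in LPS/NNK against PBS 8 (4 higher, 4 lower) against 55.1%. The shares over all items are too high for a call against PBS to mark these genes out. In LPS/NNK against NNK 6 were called (2 higher, 4 lower), where the background was 17.3%, and in LPS/NNK against LPS 2 were called, both lower, where it was 4.11%. The genes were chosen with these results known, so nothing is read from those counts. The 2 groups' arrays stood clear of each other for 4, 6, 8, 7 and 4 of the 10 genes in the same 5 comparisons, where the shares over all items were 62.6%, 67.6%, 62.0%, 35.9% and 20.9%. The median difference of the 10 genes was 0.26, 0.25, -0.10, -0.06 and -0.28 in these comparisons, and that of all items was -0.06, 0.04, -0.04, -0.06 and 0.11. With PBS 3 alone fewer differences from PBS were called, among the 10 genes as over all items. The 3 comparisons with PBS share its arrays, and the LPS/NNK arrays enter 3 of the 5.

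**Figure D3:**
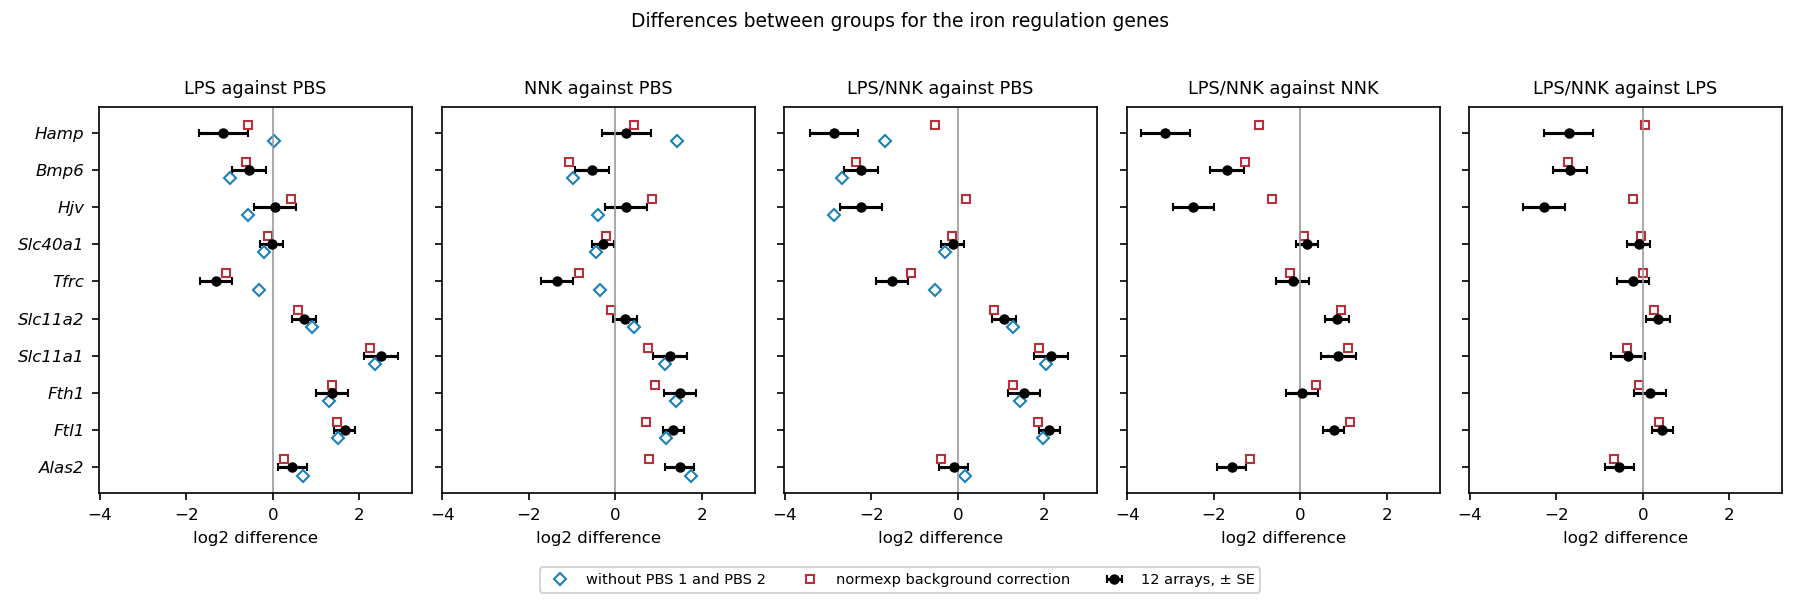
Log2 differences between groups for each of the 10 genes (horizontal axes, first group minus second; vertical axes, genes), with filled points and bars for the difference ± SE over 12 arrays, open diamonds for the value with PBS 3 as the only PBS array and open squares for normexp. Hamp and Tfrc move to higher differences from PBS when PBS 1 and PBS 2 are left out, and those of Hamp and Hjv in LPS/NNK move toward 0 under normexp. Quantile and cyclic loess scaling are not drawn. Under quantile scaling the sign of Fth1 against PBS turned for LPS and LPS/NNK, and under cyclic loess scaling for all 3 treated groups.

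The interaction is the LPS/NNK mean plus the PBS mean minus the LPS and NNK means, and it asks whether both agents together differed from the sum of each alone. It was called for 3 of the 10 genes, all lower, where 38.7% of all items were called, 20.1% higher and 18.6% lower. For Hjv it was -2.53 (SE 0.69), where each agent alone differed from PBS by 0.06 and 0.24. For Alas2 it was -2.03 (SE 0.48), and for Slc11a1 -1.61 (SE 0.56), a call that held in 12 of 23 alternatives. That of Hamp was -1.97 (SE 0.80) and not called, but was called in 7 of 22 alternatives. With PBS 3 alone it was -1.90 for Hjv and -1.49 for Slc11a1, neither called, and -2.29 for Alas2 and -3.15 for Hamp, both called.

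By the rule of the smallest distance over the 12 arrays, each gene centred on its own mean, the named genes most like Hamp were Lypd6 (0.629), Ces1g (0.641) and Pcdha6 (0.652). Those most like Hjv were Ptpru (0.306), Ccdc3 (0.321) and Shroom3 (0.361), and those most like Slc11a1 were Oasl1 (0.337), Slc15a3 (0.343) and Pld4 (0.347). For Hamp, 1 item without a symbol was nearer than Lypd6, for Hjv 1 was nearer than Ptpru, and for Slc11a1 2 were nearer than Oasl1. Lypd6 was above background on 9 of 12 arrays.

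The wider pathway was read from 69 other iron genes that could be tested, of 74 listed and 71 on the array. Against PBS, LPS was higher for 22 and lower for 9 of them, NNK for 22 and 6, and LPS/NNK for 19 and 13. Over all items the shares called higher and lower were 26.1% and 29.9%, 27.8% and 23.7%, and 27.9% and 27.1%. The list's median differences were 0.35, 0.41 and 0.30, where those of all items were -0.06, 0.04 and -0.04. With PBS 3 alone fewer of the 69 genes were called in the 3 comparisons, as was the case over all items.

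Among genes that control hepcidin, 6 of 16 were called with LPS (4 higher), 5 with NNK (all higher) and 7 with LPS/NNK (4 higher), where 56.0%, 51.5% and 55.1% of all items were called. Stat3, which carries the interleukin 6 signal to Hamp in liver, read 2.43, 2.14 and 2.09 in PBS, 3.27, 3.36 and 3.95 in LPS, 3.61, 3.50 and 3.46 in NNK, and 4.28, 5.05 and 4.89 in LPS/NNK. All treated arrays were above PBS, and LPS/NNK was above all others. Stat3 rose by 1.31 with LPS, 1.30 with NNK and 2.52 with LPS/NNK against PBS (SE 0.27 each; limma adjusted p = 0.00125, 0.00167 and 1.31e-05), each with all 3 arrays above PBS. It rose in LPS/NNK against NNK by 1.22 (limma adjusted p = 0.00866) and against LPS by 1.22 (limma adjusted p = 0.0274). Smad6, an inhibitor of BMP signalling that BMPs themselves induce, read 3.12, 3.78 and 3.38 in PBS, 3.18, 3.79 and 3.84 in LPS, 3.83, 4.10 and 3.17 in NNK, and 2.42, 2.17 and 2.32 in LPS/NNK. The 3 LPS/NNK arrays were the lowest of the 12. Smad6 fell in LPS/NNK against NNK by 1.40 (SE 0.29, limma adjusted p = 0.00697) and against LPS by 1.30 (limma adjusted p = 0.0296). The third gene of this group called between LPS/NNK and NNK was Bmp2, a BMP, which fell by 1.05 (SE 0.34, limma adjusted p = 0.0465) and was above background on 1 of 3 LPS/NNK arrays; its call held in 4 of 17 alternatives. Normexp ended the calls of Smad6 and Bmp2 against NNK, and that of Stat3 held in all 18 alternatives. Against LPS the calls of Stat3 and Smad6 held in 10 of 17. Against PBS, Atoh8, a transcription factor that BMP signals raise, rose by 1.36 with LPS and 1.59 with NNK (limma adjusted p = 0.00209 and 0.00108), neither called with PBS 3 alone, and the BMP signal carrier Smad1 rose by 1.58 with LPS/NNK (limma adjusted p = 0.000443).

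Among 15 genes of iron uptake and carriage, 5 were called between LPS/NNK and NNK, 1 higher and 4 lower. The shares over all items were 7.92% and 9.35%. Steap4, a membrane reductase of iron and copper, read -5.87, -5.08 and -4.16 in NNK, where 2 of 3 arrays were not above background, and -1.43, -1.44 and -2.34 in LPS/NNK. Its level in PBS was -0.91, -2.89 and -2.60 and in LPS -1.53, -2.50 and -3.47, so NNK was the low group. It rose by 3.30 in LPS/NNK against NNK (SE 0.59, limma adjusted p = 0.00294) and fell by 2.90 in NNK against PBS (limma adjusted p = 0.00157), but under normexp these values were 0.46 and 0.18 and neither was called. Cd163, the macrophage receptor that takes up haemoglobin bound to haptoglobin, was above background on all PBS and NNK arrays and on no LPS or LPS/NNK array. It read -2.32, -2.23 and -1.39 in PBS and -2.67, -2.94 and -2.48 in NNK, and lay between -4.30 and -6.87 elsewhere. A level under background gives only a bound: the bright mean is set against the dim group's mean of, per array, the higher of the dimmest signal well above background and the probe's own. On that basis Cd163 was at least 3.92-fold lower in LPS/NNK than in NNK (limma adjusted p = 0.00815), at least 5.14-fold lower in LPS than in PBS (limma adjusted p = 0.000454) and at least 6.45-fold lower in LPS/NNK than in PBS (limma adjusted p = 0.000347), and normexp ended each of these calls. Slc22a17, a receptor for lipocalin 2, fell by 1.27 in LPS/NNK against NNK (SE 0.27, limma adjusted p = 0.00805), as did Steap3, an endosomal iron reductase that was above background on 1 of 3 LPS/NNK arrays, by 1.65 (SE 0.44) and Lrp1, a receptor that takes up haem bound to hemopexin, by 1.02 (SE 0.31); normexp ended all of these calls, and those of Steap3 and Lrp1 held in 10 of 17 and 8 of 18 alternatives. The 2 iron-binding defence proteins of this list fall outside the naming rule and were picked after their values were seen. Ltf, lactoferrin, read -0.09, -0.43 and 3.04 in PBS, and 2.77 to 6.70 on the 9 treated arrays. It rose by 4.90 with LPS, 4.59 with NNK and 4.21 with LPS/NNK against PBS, and by 2.70, 2.39 and 2.01 with PBS 3 alone, where no call was left. Lcn2, lipocalin 2, was 3.18, -0.80 and -1.41 in PBS, and its differences from PBS were 2.78 with LPS and 2.79 with LPS/NNK (SE 0.88 each), both called. Leaving out single arrays moved the first between 1.92 and 4.21, with the call lost without PBS 2, PBS 3 or LPS 1. The second was lost without PBS 2, PBS 3 or LPS/NNK 3, with slide as a fixed block and with only the groups compared, and with PBS 3 alone both were higher, at 4.51 and 4.52.

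Cybrd1, a membrane ferric reductase, rose against PBS by 2.08 with LPS, 1.72 with NNK and 1.48 with LPS/NNK (limma adjusted p = 0.000158, 0.00076 and 0.00125), the last with 2 of 3 arrays above background; normexp ended the first, at 1.04. Among storage genes, the iron chaperones Pcbp1 and Pcbp2, which load ferritin, rose with LPS by 1.34 and 1.35 (limma adjusted p = 0.0058 and 0.000503) and with LPS/NNK by 2.02 and 1.21 (limma adjusted p = 0.00037 and 0.000943), and Pcbp2 rose by 1.45 with NNK. Ncoa4, the receptor that takes ferritin to lysosomes, fell by 1.04 with NNK (limma adjusted p = 0.00315). Against PBS 3 alone the calls of Ncoa4 with NNK and of Pcbp1 with LPS were lost, and normexp, quantile and cyclic loess scaling each ended those of Pcbp1 with LPS and of Pcbp2 with LPS/NNK.

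Of 3 iron sensing genes, 2 were called with LPS and 2 with NNK, all lower, and 1 with LPS/NNK, also lower. The shares called lower over all items were 29.9%, 23.7% and 27.1%. Aco1, which encodes iron regulatory protein 1, was not called, and its differences from PBS were 0.52, 0.48 and 0.18 with LPS, NNK and LPS/NNK (SE 0.24 each). Fbxl5, which marks iron regulatory protein 2 for degradation when iron is plentiful, fell by 1.80 with LPS, 2.07 with NNK and 1.36 with LPS/NNK against PBS (SE 0.37 each; limma adjusted p = 0.00135, 0.000787 and 0.00707), with all 3 arrays of each group below PBS. These values were -2.08, -2.36 and -1.65 with PBS 3 alone and kept their calls. Ireb2, which encodes iron regulatory protein 2, was above background on all 3 PBS arrays but on none of the LPS arrays and on 1 each of the NNK and LPS/NNK arrays, so its values are near the floor. Its calls against LPS have no fold, since the bound set by the dimmest signal above background was under 1. NNK differed from PBS by -0.65 and LPS/NNK from NNK by 0.79, calls that held in 8 of 18 and 6 of 17 alternatives, the first not with PBS 3 alone. Under normexp the signs of its differences in LPS and NNK from PBS and in LPS/NNK from NNK turned.

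Of 13 haem synthesis genes, 4 were called with LPS and 3 with NNK, all higher, and 6 with LPS/NNK, 3 higher and 3 lower, where 56.0%, 51.5% and 55.1% of all items were called. Alad, the second enzyme of haem synthesis, rose by 1.90 with LPS, 1.66 with NNK and 1.52 with LPS/NNK (SE 0.23 each; limma adjusted p = 4.81e-05, 0.000247 and 0.000153), with every treated array above PBS. Abcb6, a porphyrin transporter, rose by 1.38 with LPS and 1.84 with NNK (limma adjusted p = 0.000851 and 0.000269), and Slc25a28, mitoferrin 2, by 1.30 with LPS/NNK (limma adjusted p = 0.000646). Between LPS/NNK and NNK, Slc25a37, mitoferrin 1, which supplies iron to the mitochondria of red cell precursors, fell by 1.44 (SE 0.31, limma adjusted p = 0.00857), and its partner Abcb10 fell by 0.86 (SE 0.27, limma adjusted p = 0.0442). These were the 2 of 13 haem synthesis genes called in that comparison, where 9.35% of all items were called lower. Normexp ended both, and the call of Abcb10 held in 7 of 18 alternatives.

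Of 9 genes of haem transport and breakdown, 5 were called with LPS (4 higher), 5 with NNK (4 higher) and 6 with LPS/NNK (5 higher), beside the same shares of all items. Hmox1, haem oxygenase 1, which frees iron from haem, read 2.28, 1.41 and 1.75 in PBS, 3.50, 2.88 and 2.80 in LPS, 2.69, 2.66 and 2.73 in NNK, and 3.73, 3.65 and 3.53 in LPS/NNK. All treated arrays were above PBS and all LPS/NNK arrays above the other 9. Hmox1 rose by 1.82 in LPS/NNK against PBS (SE 0.27, limma adjusted p = 0.000112) and by 0.94 against NNK (limma adjusted p = 0.0293), the second a call that held in 9 of 18 alternatives. Slc46a1, a carrier of haem and folate, rose by 1.66, 2.10 and 1.99 with LPS, NNK and LPS/NNK against PBS (limma adjusted p = 0.000523, 0.000238 and 0.000121). The haem exporter Abcg2 fell by 1.16 with LPS (limma adjusted p = 0.000984) and lost its call with PBS 3 alone, and the lysosomal haem carrier Slc48a1 rose by 1.18 with NNK (limma adjusted p = 0.00108).

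Among 7 genes of iron-sulphur assembly, Glrx5, a glutaredoxin of that route, rose by 0.70 and 0.81 with LPS and NNK (limma adjusted p = 0.0251 and 0.0142), neither called with PBS 3 alone. Lyrm4, a subunit of the assembly complex, fell by 1.54 in LPS/NNK against NNK (SE 0.29, limma adjusted p = 0.00434), by 1.37 against LPS (limma adjusted p = 0.0253) and by 0.75 against PBS (limma adjusted p = 0.0423), the last holding in 8 of 19 alternatives and lost with PBS 3 alone. Normexp also ended the calls with NNK against PBS of Stat3, Alad, Slc48a1, Pcbp2 and Glrx5.

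In all, 13 of the 69 genes were called between LPS/NNK and NNK, 4 higher (Stat3, Steap4, Ireb2 and Hmox1) and 9 lower, where 7.92% of all items were higher and 9.35% lower. Between LPS/NNK and LPS 4 were called, Stat3 and Ireb2 higher and Smad6 and Lyrm4 lower, where 2.85% of all items were higher and 1.26% lower. Under normexp 1 (Stat3) and 0 were called in these comparisons, and 354 and 0 of all items, where 2443 and 1524 items had an unadjusted p under 0.05. The counts also moved with single arrays: the first was 7 without NNK 2, NNK 3 or LPS/NNK 6 and 8 without LPS/NNK 3, and the second rose to 11 without LPS/NNK 2.

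**Figure D4:**
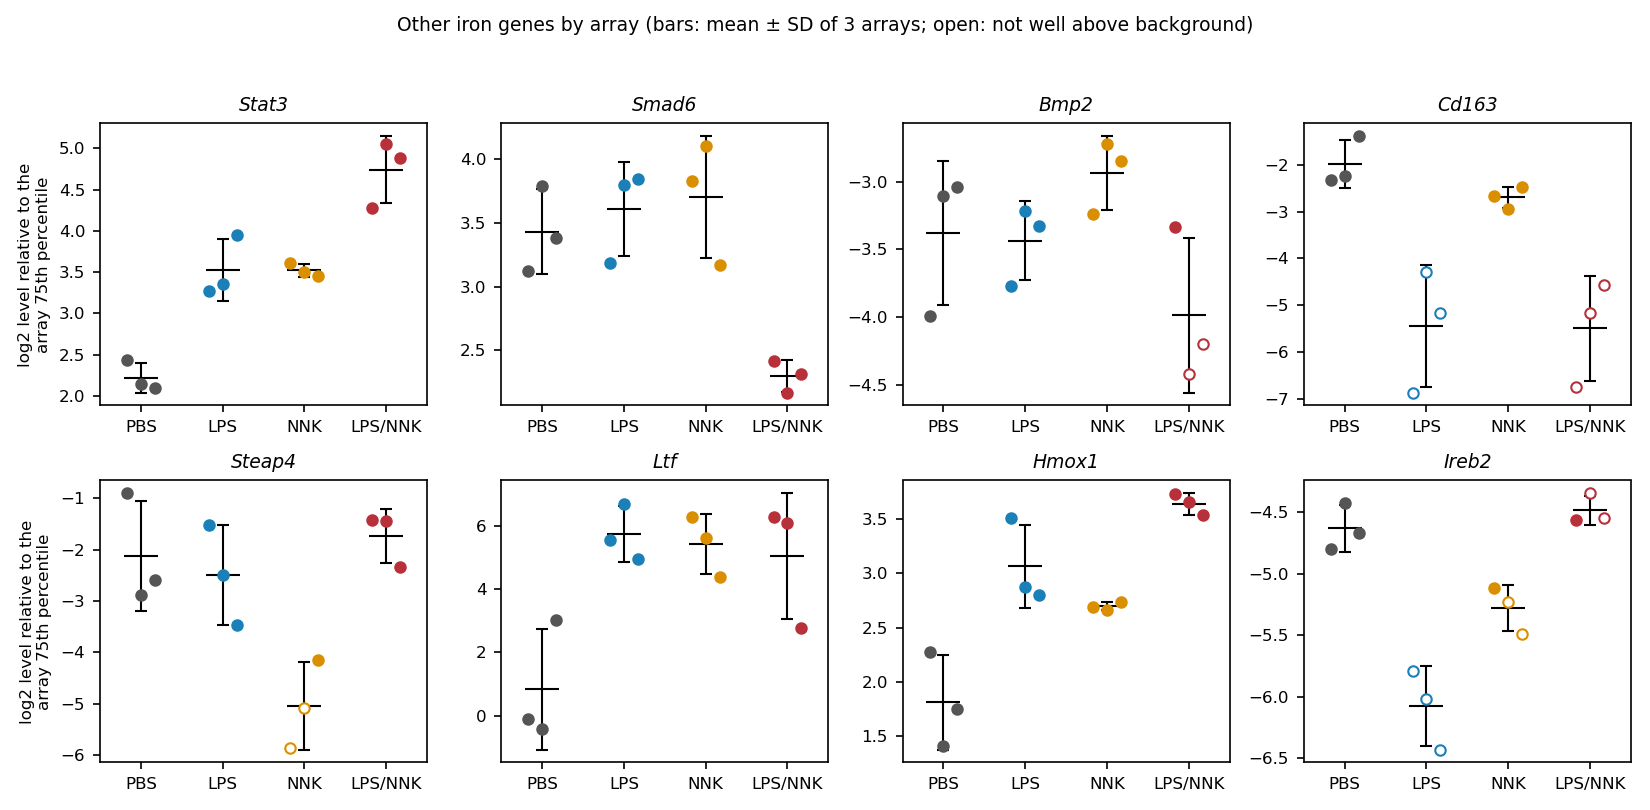
Log2 levels of 8 other iron genes on each array (vertical axes, relative to the 75th percentile of the array; horizontal axes, the 4 groups), with bars for the mean ± SD of 3 arrays and open points where the probe was not well above background. Stat3 and Hmox1 are highest and Smad6 is lowest in LPS/NNK, Cd163 is near background in LPS and LPS/NNK, Ireb2 is near background in all treated groups with signs that turned under normexp, and Steap4 is lowest in NNK, which normexp did not retain.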

How the data were processed

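RNA from 12 mouse lungs was labelled with Cy3 and read on single-colour Agilent arrays, per the labels' protocols. Per the file headers, the deposited scanner files came from Agilent Feature Extraction 10.7.3.1 and give processed intensities per spot on a linear scale. The submitters' processing notes name Agilent Feature Extraction 10.7 and Partek. The deposited series table holds log2 values that differed by at most 0.000176 from values computed here with outlier spots kept. The levels given in this report leave outlier spots out. The genes and lists were chosen with earlier results of these data known.

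Control spots and outlier spots were left out, spots of a probe were averaged, log2 was taken and the 75th percentile of each array subtracted. A probe was well above background where over 0.5 of its spots were marked so, and was kept where all arrays of at least 1 group met this; the brightest probe stood for a gene. Contrasts were fitted with limma 3.58.1 in R 4.3.3 on all 12 arrays with 1 mean per group, with Benjamini-Hochberg adjustment over 21855 items. The fit was tested on simulated data. Nothing says that the 3 arrays of a group come from separate cages or days, so SEs and p-values measure the spread between these arrays. An exact permutation test of 3 against 3 arrays cannot go below 0.1 and was not used. Planned mean intensities were not among the columns of the files, so normexp (offset 50) used median intensities.

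Other iron genes were named by rule: per comparison and role group, up to 2 called genes with the smallest p, and every called gene where a printed count was 5 or fewer; 1 item is not reported here. Alternatives were normexp, quantile, cyclic loess and median scaling, other probe filters, the mean over probes, the deposited table, slide and replicate blocks, only the groups compared, and leaving out single arrays or PBS 1 and PBS 2. Coordinates of genes are not given because the array design and RefSeq use different builds.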

Additional observations from a re-analysis of the deposited data

Results flagged for a closer look

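The interaction of LPS and NNK was called in the limma fit for 3 of the 10 genes and for other iron genes. Those below are listed for that reason. The 10 genes were chosen with earlier results known, so their calls are descriptions. Values are LPS/NNK plus PBS minus LPS minus NNK, on the log2 scale. Of the 10 genes, Hjv was at -2.53, Alas2 at -2.03 and Slc11a1 at -1.61. Of the haem genes, Alad was at -2.03, Abcb6 at -1.99, Slc46a1 at -1.77 and Slc48a1 at -1.32. Of the genes that control hepcidin, Atoh8 was at -1.80 and Smad6 at -1.57. Of the storage and export genes, Pcbp2 was at -1.60 and Heph, a ferroxidase, at 1.42, the latter a call that held in 9 of 23 alternatives. The sensors Ireb2 and Fbxl5 were at 2.24 and 2.51, the first near background in most arrays. Of the uptake genes, Cybrd1 was at -2.32 and Lrp1 at -2.03, and the iron-sulphur gene Lyrm4 was at -2.15. Over all items 38.7% were called. Under normexp 57 of all items were called, with 0 of the 10 genes and 0 of the 69 others, and Ireb2 turned to -0.73. Against PBS 3 alone fewer of the 69 other genes were called, as was the case over all items. Of the calls listed, those of Hjv, Slc11a1, Slc46a1, Slc48a1, Atoh8, Smad6, Pcbp2 and Heph were lost there. Every value uses the 3 PBS arrays, of which PBS 1 and PBS 2 did not match their label. Groups of 3 arrays were not searched for single outlying arrays.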

How the results depend on the processing

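Of 1128 recomputed differences of the 10 genes, the sign turned in 59: in 6 where the difference had been called, and in 53 where it had not. Apart from those 6, 63 moved by more than the spread between replicates and 1059 by less. Normexp, which shifted the median difference of all items by up to 0.57 (median scaling by up to 0.40), turned Hjv to 0.19 in LPS/NNK against PBS. Fth1 turned to -0.061 and -0.054 for LPS and LPS/NNK against PBS under quantile scaling, and to -0.16, -0.050 and -0.36 for all treated groups in turn under cyclic loess. Among other iron genes, normexp turned Ireb2 to 0.53 and 1.41 (LPS and NNK against PBS), -0.20 (LPS/NNK against NNK) and -0.73 (interaction), and Steap4 to 0.18 (NNK against PBS). The causes were not tested. Counts of the 10 genes called, in the order of LPS, NNK and LPS/NNK each minus PBS, both agents minus NNK, both agents minus LPS, and the interaction (5, 5, 8, 6, 2 and 3) became 2, 1, 4, 0, 0 and 0 under normexp, and those of the other iron genes (31, 28, 32, 13, 4 and 23) became 14, 18, 22, 1, 0 and 0. Where 0 were called, 6, 1 and 1 of the 10 genes and 6 and 14 of the others had an unadjusted p under 0.05. In the same order, normexp left 4139, 7993, 6449, 354, 0 and 57 of all items called. The main fit called 12242, 11264, 12036, 3773, 898 and 8464 of them. The count of the 10 genes became 3 in NNK against PBS and 1 in LPS/NNK against LPS under quantile scaling, 2 and 1 in LPS and NNK against PBS under cyclic loess, 6 in the interaction under median scaling, and 1 in LPS/NNK against LPS with no filter or with only probes above background on all arrays. With no filter the other iron genes called were 8 in LPS/NNK against NNK and 1 in LPS/NNK against LPS. With slide as a fixed block (8 arrays, 2 residual df) the counts were 3 of the 10 genes in NNK against PBS, and 21 and 7 of the other iron genes in LPS/NNK against PBS and NNK. Fitting only the groups compared left 0 of each in LPS/NNK against LPS (3 and 10 at an unadjusted p under 0.05). Without PBS 1 and PBS 2, 2, 2 and 5 of the 10 genes and 13, 12 and 15 other iron genes were called against PBS, and 9 in the interaction; fewer arrays remain there. Leaving out single arrays gave 4 to 5, 4 to 5, 8 to 8, 3 to 6, 0 to 2 and 2 to 4 of the 10 genes, and 26 to 32, 23 to 27, 24 to 33, 7 to 15, 1 to 11 and 18 to 31 other iron genes. The count of 10 in LPS/NNK against NNK fell to 3 without NNK 3 or LPS/NNK 3, and that in LPS/NNK against LPS to 0 without LPS 1, LPS 5, LPS/NNK 3 or LPS/NNK 6 (3 at an unadjusted p under 0.05 in each). Levels near background (Hamp, Hjv, Cd163, Steap3, Steap4, Ireb2) are limited by signal.

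Deviations from the group means correlated at -0.147 to 0.408 over 9 pairs of arrays with the same replicate number and at -0.411 to 0.339 over 45 others. These ranges overlap, so they cannot decide whether such arrays share more than a number. With the replicate block, 5 of the 10 genes were called in the interaction; all-item counts were 11802, 11184, 12039, 3695, 1892 and 8654, against 12242, 11264, 12036, 3773, 898 and 8464 without it.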

Other observations

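Hamp2, the second mouse hepcidin gene, was read by its own probe near background. Its log2 level was -5.29, -4.23 and -4.57 in PBS, all above background, and -5.90, -5.04 and -5.11 in LPS, none above it. It was -3.51, -3.73 and -4.92 in NNK, the last not above background, and -4.99, -6.39 and -4.57 in LPS/NNK, where 1 of 3 arrays was above it. The highest 2 arrays were in NNK. Alveolar macrophage markers, a main iron-handling cell of lung, summed to 7.17 to 7.26 in PBS, 7.61 to 8.27 in LPS, 6.96 to 7.10 in NNK and 7.61 to 9.22 in LPS/NNK. In LPS/NNK against NNK 4 of 9 were called, all higher, where 7.92% of all items were called higher. Those 4 were Marco, a scavenger receptor (2.34, SE 0.65, limma adjusted p = 0.0263), Chil3, a chitinase-like protein (1.57, limma adjusted p = 0.0131), Pparg, a transcription factor of these cells (0.95, limma adjusted p = 0.0391), and Mrc1, a mannose receptor (0.89, limma adjusted p = 0.0393).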
